A study of Mus musculus with 6 samples.

Results

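Itga4 encodes the alpha-4 chain of integrins, and with it are described here the genes of the integrin chains it pairs with or is related to and of the proteins they bind. The 10 genes are Itga4, Itga5, Itga6, Itga8, Itga9, Itgav, Itgb1, Itgb7, Vcam1 and Fn1. Every probe set that the platform annotation assigns to exactly 1 gene, that gene being 1 of the 10, was taken, which gave 33 of 45037 probe sets, for 10 of the 18193 genes so named. A probe set is a group of short array probes designed against 1 transcript stretch, so probe sets of a gene are repeat readings of the same RNA and not replicates. Itga4 was selected on its lower signal in these same knockout pools and because it lies near Neurod1 on the chromosome, so its values are a description and carry no test.

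Knockout pools came from newborn mice (postnatal day 0) of strain 129 homozygous for a Neurod1 knockout, and the pools they were compared with from wildtype 129 mice of the same age. The NEUROD1 protein is a helix-loop-helix DNA-binding regulator best known from neurons, the endocrine pancreas and the retina. There were 3 pools of pineal glands per genotype, each run on 1 Affymetrix array after a round of RNA amplification, and all mice lived in 12 h light and 12 h dark and gave tissue by day. The labels give 3 glands per pool for the knockout pools and wildtype pool 3, and no number for wildtype pools 1 and 2. Which stretch of Neurod1 the knockout removes is unstated, as is whether the wildtype mice were littermates, and the knockout is described for the whole animal, not for 1 cell type.

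Integrins are cell surface receptors made of 1 alpha and 1 beta chain, and the pair decides what a cell can hold on to. The alpha-4 chain joins beta-1 or beta-7 and binds VCAM1 on other cells and fibronectin in the matrix, and it is known from leukocytes, neural crest and early heart tissue. The alpha-9 chain is its closest relative and joins beta-1. The alpha-5, alpha-8 and alpha-v chains bind fibronectin and related proteins at an arginine-glycine-aspartate site, while alpha-6 binds laminins of basement membranes.

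The target gene followed the labels. Neurod1 probe set 1426413_at had signals of 390.2, 523.9 and 122.5 in knockout pools 1, 2 and 3, against 9027, 9300.6 and 7519.4 in wildtype pools 1, 2 and 3. Its log2 difference, knockout minus wildtype, was −4.67 (SE 0.46; limma adjusted p = 0.0453). The second probe set, 1426412_at, gave −4.73 (SE 0.45), with the same adjusted p, and for both the knockout pools lay far below every wildtype pool. That adjusted p was 0.0900 with no offset added to the signals, 0.0641 with quantile normalization and 0.0608 without a trend in the prior variance. All 9 pinealocyte markers examined (Tph1, Aanat, Crx, Otx2, Sag, Ddc, Gngt1, Lhx4 and Isl1) lay above the filter on dim probe sets, a mean signal of 115 over the 6 pools. Knockout pool 1 stood apart from the others: the median of 48 ribosomal protein genes was 1.11 above their 6-pool mean on the log2 scale there, and between −0.53 and −0.0007 in the other 5 pools. Array medians lay between 168.1 and 183.7 in knockout and between 132.4 and 182 in wildtype.

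Of the 33 probe sets, 17 from 8 genes passed the filter and 16 did not. All 4 probe sets of Itga5 and the single one of Itgb7 were below it. The other 8 genes passed with 2 of 5 probe sets (Itga4), 2 of 2 (Itga6), 1 of 2 (Itga8), 1 of 3 (Itga9), 2 of 5 (Itgav), 4 of 6 (Itgb1), 3 of 3 (Vcam1) and 2 of 2 (Fn1). Levels are not set against each other between probe sets, since each has its own probes.

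Itga4 was lower in knockout by 1 of its 2 brighter probe sets and not by the other. Probe set 1456498_at had signals of 34.5, 391.6 and 567.1 in knockout pools 1, 2 and 3, against 759.9, 732.4 and 1333.7 in wildtype pools 1, 2 and 3. Every knockout pool lay below every wildtype pool, and knockout pool 1 was 11.4 times lower than the next lowest pool. The means were 331 ± 271 in knockout and 942 ± 340 in wildtype (SD, n = 3 each), a ratio of 0.352, and the log2 difference was −1.82. Within pool numbers 1, 2 and 3 it was −3.45, −0.84 and −1.18. Without knockout pool 1 it was −0.89, with the groups still apart. In pools of whole glands, fewer cells of a type and less RNA per cell cannot be told apart.

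The second Itga4 probe set gave another picture. Probe set 1436037_at read 403.3, 432.5 and 441.8 in knockout pools 1, 2 and 3 and 290.2, 521.7 and 533.9 in wildtype pools 1, 2 and 3. All knockout values lay inside the wildtype range, and the low pool was wildtype pool 1. Its means were 426 ± 20.1 in knockout and 449 ± 137 in wildtype (SD, n = 3 each), with a log2 difference of −0.03 and differences of 0.43, −0.25 and −0.25 within numbers 1, 2 and 3. The gap between the 2 probe sets was 1.80 on the log2 scale, the widest among the 6 member genes with over 1 probe set above the filter. The choice of Itga4 for its fall favours such a wide gap. The exon or transcript end that each probe set covers was not analysed here.

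The 3 Itga4 probe sets below the filter gave differences on both sides of 0. Their signals lay between 15.2 and 97.9 in knockout and between 7.4 and 61.2 in wildtype. Probe set 1427615_at had 97.9, 26.1 and 47.7 in knockout pools 1, 2 and 3, against 7.8, 32.2 and 7.4 in wildtype pools 1, 2 and 3, a log2 difference of 0.78 in the fit with no filter. For 1450155_at and 1421194_at it was −0.0007 and −0.26. Groups overlapped for all 3.

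**Figure D1:**
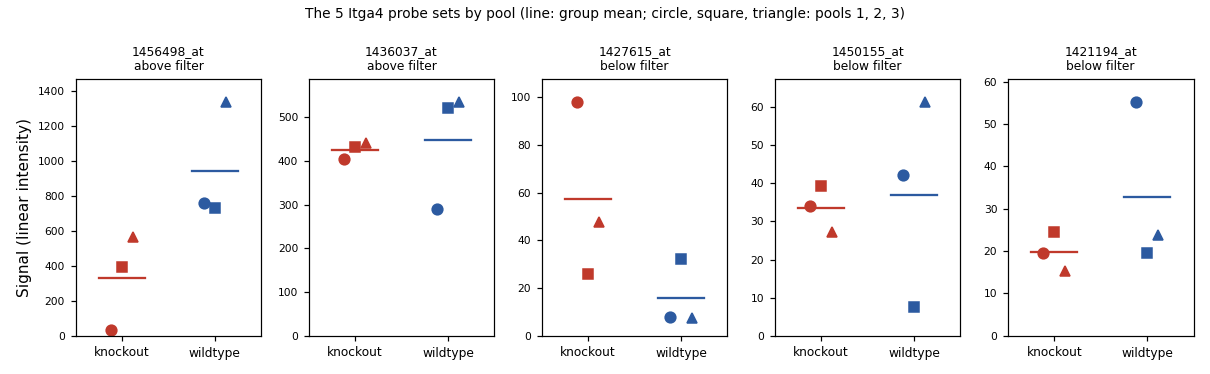
Signal (linear intensity, y axis from 0, scaled per panel) of the 5 Itga4 probe sets in the 3 knockout pools (left) and 3 wildtype pools (right) of each panel; circles, squares and triangles are pools 1, 2 and 3, and lines are group means. The groups are apart for 1456498_at, where knockout pool 1 reads 34.5, and overlap for the other 4 probe sets.

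Upstream sequences are shown for Itga4 and for Itga9, its relative, because their brightest probe sets were the only 2 of the 17 without overlap between the groups, the first lower and the second higher in knockout. Over all probe sets above the filter, 4.21% were lower and 5.42% higher without overlap. The 1 of 17 in each direction is near those shares, and Itga4 was chosen for its fall. NEUROD1 protein binds E-boxes, whose letters are CANNTG. An E-box on 1 strand is thus an E-box on the other too, though its middle letters can differ. Below are the 250 bases before the annotated start of each gene, on the plus strand, 5′ to 3′, from RefSeq (GRCm38.p6), with each E-box in capitals. The Itga4 stretch is chr2:79255176-79255425 and the Itga9 stretch is chr9:118711442-118711691.
Itga4: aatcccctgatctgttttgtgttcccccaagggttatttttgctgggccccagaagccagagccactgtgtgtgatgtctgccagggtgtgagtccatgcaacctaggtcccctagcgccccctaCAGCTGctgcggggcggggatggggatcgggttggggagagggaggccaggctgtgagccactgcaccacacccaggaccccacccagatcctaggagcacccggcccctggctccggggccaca
Itga9: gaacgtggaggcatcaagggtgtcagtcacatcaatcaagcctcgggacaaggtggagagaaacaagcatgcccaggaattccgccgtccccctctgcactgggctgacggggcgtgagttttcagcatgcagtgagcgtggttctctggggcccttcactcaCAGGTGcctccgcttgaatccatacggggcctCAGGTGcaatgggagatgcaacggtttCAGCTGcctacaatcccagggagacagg
The Itga4 window held 1 E-box, CAGCTG, 119 bases before the start. The Itga9 window held 3. Those lying 81 and 49 bases before the start read CAGGTG, and the one at 22 bases read CAGCTG. Of 32851 promoters in the RefSeq table, 66.2% had at least 1 such E-box in these 250 bases, 12.2% had at least 3, and 13.0% held CAGCTG. Of the 7 member genes found in that table, 5 had at least 1. A match is only a description of letters, and no binding was measured.

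Itga4 is the second gene before Neurod1 among those that the array measures, with Cerkl, a ceramide kinase-like gene of photoreceptors, between them. Cerkl's only probe set, 1446252_at, had signals of 6.2, 83.4 and 61.1 in knockout pools 1, 2 and 3, against 96.1, 119.6 and 114.8 in wildtype pools 1, 2 and 3. It was below the filter, and every knockout pool was lower than every wildtype pool (log2 difference −0.86, SE 0.43, limma adjusted p = 0.998 with no filter). The same held for 2.15% of all probe sets below the filter. The RefSeq models of Itga4 and Cerkl overlap by 624 bases, and whether a probe set named for one also reads the other was not tested.

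The other 8 neighbours, 3 before Itga4 and 5 after Neurod1, had log2 differences between −0.49 and 0.23. Dnajc10, which encodes a chaperone of the endoplasmic reticulum, was the 1 gene of these without overlap, at 2023.4, 1906.8 and 1903.3 in knockout pools 1, 2 and 3 and 2569.7, 2594.7 and 2185.5 in wildtype pools 1, 2 and 3 (log2 difference −0.32, SE 0.28, limma adjusted p = 0.9996). Next to Neurod1 on its far side, Itprid2 had a log2 difference of −0.49 (SE 0.29), and the groups overlapped. Ube2e3, a ubiquitin-conjugating enzyme gene and the neighbour before Itga4, had −0.19 (SE 0.35). Over all 27019 probe sets above the filter, 4.21% had every knockout pool below every wildtype pool.

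**Figure D2:**
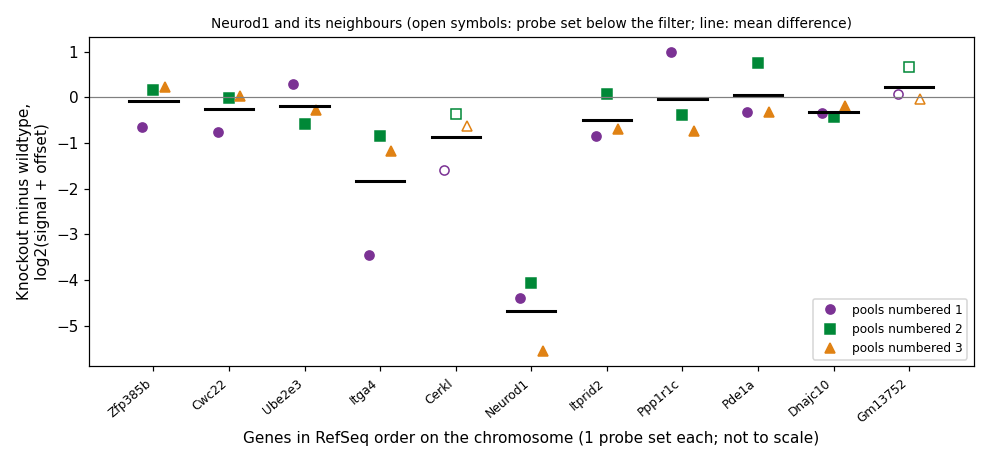
Log2 difference, knockout minus wildtype, for Neurod1 and the 5 measured genes on each side of it in RefSeq order (x axis, not to scale), 1 probe set per gene. Symbols are the differences within pool numbers 1, 2 and 3, open where the probe set was below the filter, and black lines are mean differences. Neurod1 (−4.67), Itga4 (−1.82), Cerkl (−0.86) and Dnajc10 (−0.32) lie below 0 in all 3 numbers, as do 14.9% of all probe sets above the filter.

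None of the partner and ligand genes passed the test. Their 15 probe sets above the filter, from 7 genes, had lower means in knockout for 8 and higher means for 7. In limma all 15 had an adjusted p of 0.9996, and 0 had an unadjusted p under 0.05. Across all 27019 probe sets, 0.0074% were called lower, both of them Neurod1, and 0.0% were called higher, while 3.15% had an unadjusted p under 0.05. With limma's array weights, 1 of the 15 was called, Itga6 1422444_at, in a fit that called 6.93% of all probe sets lower and 9.1% higher. The median log2 difference of the 17 member probe sets was −0.06, against 0.03 over all probe sets, of which 53.3% had higher means in knockout.

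Itgb1 encodes the beta-1 chain shared by most of these alpha chains, and its 4 probe sets above the filter gave differences on both sides of 0. Probe set 1452545_a_at had signals of 441, 1177.4 and 787.2 in knockout pools 1, 2 and 3, against 1542.3, 1192.1 and 569.4 in wildtype pools 1, 2 and 3. Probe set 1426918_at had 616, 1177.2 and 917.3 in knockout, against 1397.3, 999.9 and 577.1 in wildtype, in the same order of pools. In both, the wildtype pools spanned the wider range and wildtype pool 1 was highest. The log2 differences were −0.43 (SE 0.46) and −0.09 (SE 0.39), with 95% intervals from −1.47 to 0.61 and from −0.98 to 0.80.

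The 2 Itgb1 probe sets whose names end in x_at can, by Affymetrix's naming, share probe sequence with other transcripts. Of these, 1427771_x_at read 18.4, 156.9 and 115.5 in knockout pools 1, 2 and 3 and 329.7, 145.3 and 115.7 in wildtype pools 1, 2 and 3, a log2 difference of −0.87 (SE 0.55). The low value was again knockout pool 1, and the differences within numbers 1, 2 and 3 were −2.69, 0.09 and −0.0019. For 1426920_x_at the signals were 101.6, 118.8 and 188 in knockout, against 70, 115.3 and 109.7 in wildtype, with a log2 difference of 0.34 (SE 0.39). This probe set was higher in knockout within all 3 numbers, which held for 4 of the 17 member probe sets and for 14.8% of all. Its means were 136 in knockout and 98.3 in wildtype, so it passed the filter of 115 only through its knockout signal.

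Itgb7 encodes the beta-7 chain, which joins alpha-4 on lymphocytes. Its probe set 1418741_at was below the filter, with signals of 12.5, 149.8 and 96.6 in knockout pools 1, 2 and 3, against 23.3, 122.8 and 13.3 in wildtype pools 1, 2 and 3. Single pools of both genotypes were high and low. Of 6 measured lymphocyte markers, only Ms4a1 lay above the filter, while Cd3e, Cd3d, Cd3g, Cd79a and Cd79b did not.

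Itga9, the relative of Itga4, had higher signals in knockout without overlap. Probe set 1460285_at read 394.9, 359.5 and 356.7 in knockout pools 1, 2 and 3, against 283.8, 305.8 and 198 in wildtype pools 1, 2 and 3. The knockout pools lay close together and all above the highest wildtype pool. Means were 370 ± 21.3 in knockout and 263 ± 57.0 in wildtype (SD, n = 3 each), a ratio of 1.41, and the log2 difference was 0.46 (SE 0.26; 95% interval −0.14 to 1.06; limma adjusted p = 0.9996). It was 0.43, 0.21 and 0.74 within numbers 1, 2 and 3. Among all probe sets, 5.42% were higher in knockout without overlap, and 1 of 17 here is close to that share. The other 2 Itga9 probe sets were below the filter, with signals up to 101.7 in knockout and 79.3 in wildtype.

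**Figure D3:**
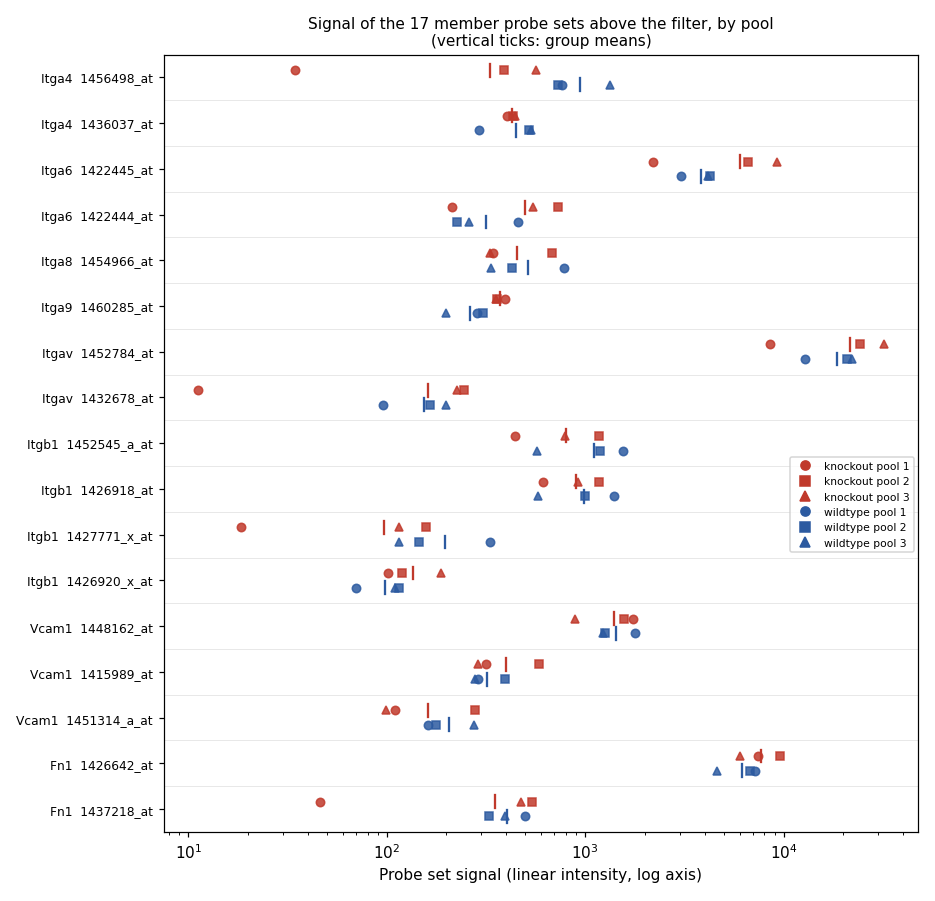
Signal (linear intensity, log axis) of the 17 member probe sets above the filter; red symbols are knockout pools and blue symbols wildtype pools, circles, squares and triangles are pools 1, 2 and 3, and vertical ticks are group means. Knockout pool 1 reads 34.5, 11.2, 18.4 and 46.2 for 1 probe set each of Itga4, Itgav, Itgb1 and Fn1.

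Itga6, the laminin-binding chain, was high in knockout pools 2 and 3 and low in knockout pool 1. Probe set 1422445_at had signals of 2184, 6583 and 9251.7 in knockout pools 1, 2 and 3, against 3038.1, 4256.6 and 4167 in wildtype pools 1, 2 and 3. Its log2 difference was 0.43 (SE 0.52; 95% interval −0.73 to 1.60), made up of −0.47, 0.62 and 1.14 within numbers 1, 2 and 3. The second probe set, 1422444_at, read 214.2, 730.7 and 546.6 in knockout and 458.5, 224.9 and 260.1 in wildtype, a log2 difference of 0.51 (SE 0.44). The 2 probe sets thus differed by 0.08 in their mean difference. Without knockout pool 1 they gave 1.04 (SE 0.29) and 0.98 (SE 0.34), both with a limma adjusted p of 0.677.

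Itgav encodes the alpha-v chain, which binds vitronectin, fibronectin and latent TGF-beta. Its brightest probe set, 1452784_at, had signals of 8492.8, 24345.8 and 31976.9 in knockout pools 1, 2 and 3, against 12778.6, 20871.3 and 22191.8 in wildtype pools 1, 2 and 3. Both pools numbered 1 were lowest in their group, as for Itga6 1422445_at, and the log2 difference was 0.05 (SE 0.51; 95% interval −1.10 to 1.20). Probe set 1432678_at read 11.2, 244.1 and 227.1 in knockout and 95.8, 165.7 and 199 in wildtype (log2 difference −0.27, SE 0.65).

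Among the Itgav probe sets below the filter, 1 had the groups apart. This was 1432679_at, with 12.5, 28.1 and 62.1 in knockout pools 1, 2 and 3, against 99.9, 97.1 and 108.9 in wildtype pools 1, 2 and 3 (log2 difference −1.005, SE 0.36, limma adjusted p = 0.998 with no filter). It was 1 of the 16 member probe sets below the filter, and 2.15% of all probe sets below the filter were lower in knockout without overlap. With no filter the count was 2 of the 33 member probe sets, Itga4 1456498_at being the other, against 3.39% of all. For the other 4 Itgav probe sets the groups overlapped.

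Itga8, a chain of smooth muscle and mesenchyme, overlapped between the groups. Probe set 1454966_at had 344.7, 677.8 and 332.4 in knockout pools 1, 2 and 3, against 778.8, 430.1 and 333.8 in wildtype pools 1, 2 and 3, a log2 difference of −0.16 (SE 0.39). Itga5, the main fibronectin receptor chain of many mesenchymal and endothelial cells, was below the filter on all 4 probe sets. Its signals lay between 5.5 and 146.9 in knockout and between 11.4 and 125 in wildtype, with log2 differences between −0.24 and 0.21 in the fit with no filter.

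The ligand genes showed no shared direction. Vcam1, a cell surface ligand of alpha-4 and alpha-9 integrins, had for its brightest probe set 1448162_at signals of 1749, 1569.3 and 892.6 in knockout pools 1, 2 and 3, against 1786.6, 1260 and 1229.3 in wildtype pools 1, 2 and 3. Its log2 difference was −0.06 (SE 0.35; 95% interval −0.85 to 0.74). The other Vcam1 probe sets, 1415989_at and 1451314_a_at, gave 0.23 (SE 0.32) and −0.36 (SE 0.40), and groups overlapped for all 3. For 1451314_a_at the highest knockout value was 277 and the highest wildtype value 276.4.

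Fn1 encodes fibronectin, the matrix ligand of most of these receptors. Probe set 1426642_at read 7414.8, 9598.6 and 6002.4 in knockout pools 1, 2 and 3, against 7149.5, 6738.5 and 4599.5 in wildtype pools 1, 2 and 3. It was higher in knockout within all 3 numbers, by 0.05, 0.51 and 0.38, while the groups overlapped (log2 difference 0.31, SE 0.34; 95% interval −0.46 to 1.09). Probe set 1437218_at had 46.2, 537 and 473.3 in knockout, against 497.1, 326.5 and 392.7 in wildtype, in the same order of pools. Knockout pool 1 alone lay below the wildtype range, while knockout pool 2 lay above it. The log2 difference of −0.59 (SE 0.65) was 0.31 (SE 0.28) without knockout pool 1.

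**Figure D4:**
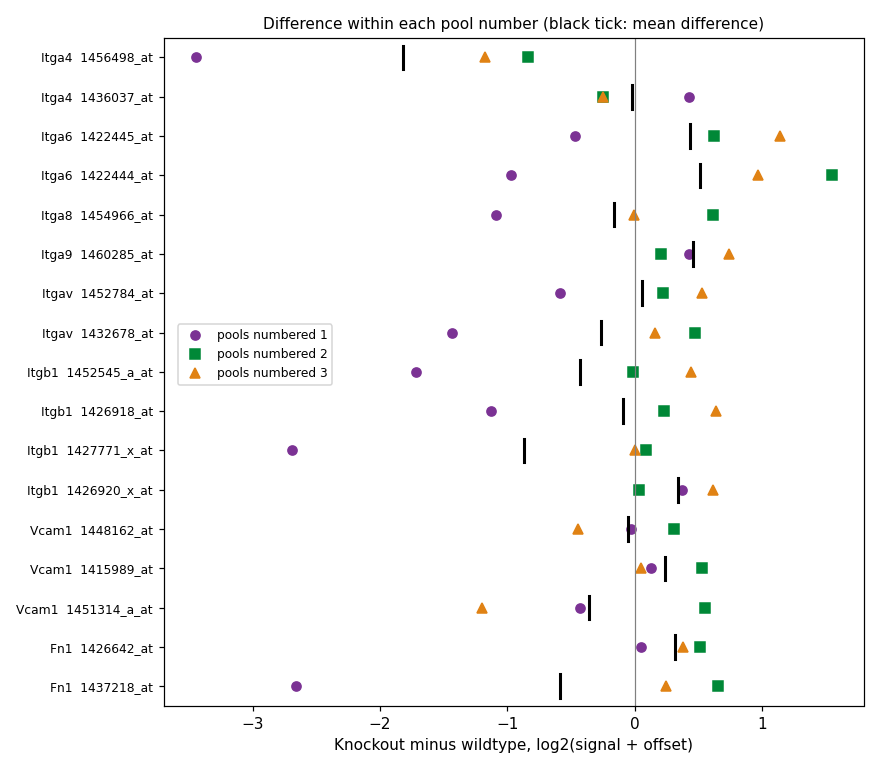
Log2 difference, knockout minus wildtype, within pool numbers 1 (circles), 2 (squares) and 3 (triangles) for the 17 member probe sets above the filter, with the mean difference as a black tick. Pools numbered 1 give the lowest of the 3 differences for 11 of the 17, a share not counted here over all probe sets. Itga4 1456498_at lies below 0 in all 3, as its choice favours and as do 14.9% of all probe sets above the filter.

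Among the member probe sets, knockout pool 1 was the lowest of the 6 pools for 8 of 17, knockout pools 2 and 3 for 0 and 3, and wildtype pools 1, 2 and 3 for 2, 0 and 4. Over all probe sets knockout pool 1 was lowest for 21.5%, knockout pool 3 for 22.2% and wildtype pool 1 for 21.8%. For 4 of the 17, 1 each of Itga4, Fn1, Itgb1 and Itgav, knockout pool 1 was more than 3 times below the next lowest pool (11.4, 7.07, 6.28 and 8.55 times). No other pool was that far below the rest for any of the 17. Among all probe sets, 1.8% were that low in knockout pool 1 and 0.315% to 0.781% in the other pools. The factor of 3 was chosen after the values were seen. Itga4 was chosen for its fall, which favours its place among the probe sets low in knockout pool 1.

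Each of those 4 genes had another probe set above the filter that was not low in this way in the same pool, as with Itga4 1436037_at at 403.3. Of 278 probe sets so low in knockout pool 1 that named 1 gene with a further probe set above the filter, 278 had such a further probe set that was not. A single further probe set was enough for this. With only 1.8% of all probe sets so low in knockout pool 1, a count near all of them was likely beforehand. The ribosomal protein genes stood high in the same pool, as given above, and their part in these values was not tested.

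Within pool numbers 1, 2 and 3, 12, 3 and 6 of the 17 member probe sets were lower in knockout, against 45.0%, 47.7% and 54.9% of all probe sets. Itga4 1456498_at, of the gene chosen for its fall, was among those lower in each number. The median differences of the 17 were −0.59, 0.31 and 0.25, against 0.10, 0.03 and −0.06 over all. Without knockout pool 1, 6 of the 17 were higher in knockout without overlap (both Itga6 probe sets, Itga9, both Itgav probe sets and Itgb1 1426920_x_at), against 12.7% of all probe sets. Of these, Itgb1 1426920_x_at passed the filter only through its knockout signal. In the lower direction the count was 1 of 17, Itga4, against 13.1%. Without both pools numbered 1 the counts were 7 and 2 of 17, against 16.7% and 17.7%. Both lower ones, 1456498_at and 1436037_at, were of Itga4, which was chosen for its fall, and none was of a partner or ligand gene. These counts rest on fewer pools and no adjusted p of a partner or ligand gene passed the threshold in either fit.

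**Figure D5:**
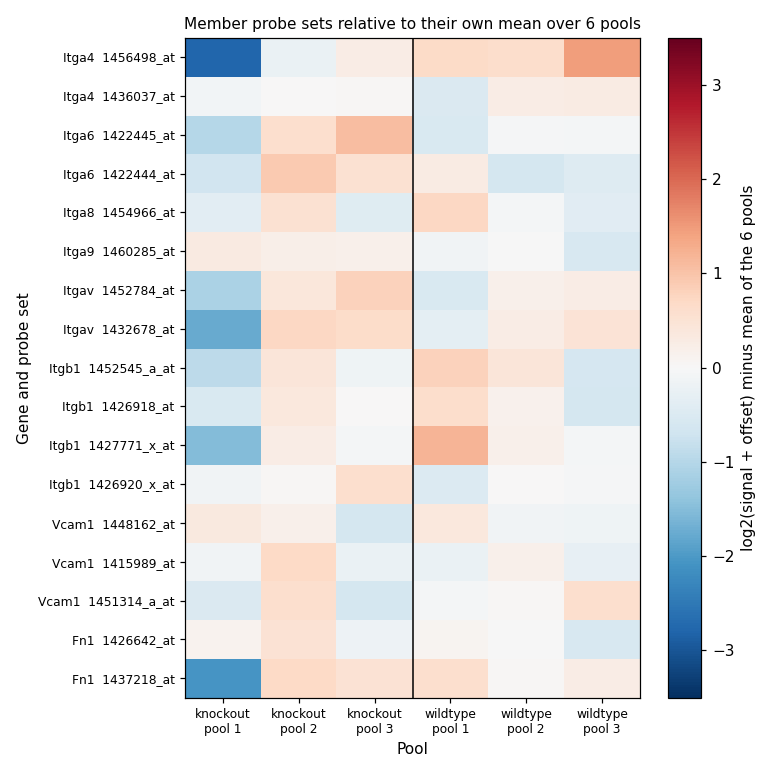
Colour scale of log2(signal + offset) minus the mean of the 6 pools for each of the 17 member probe sets (rows), in knockout pools 1 to 3 (left) and wildtype pools 1 to 3 (right). The darkest blue cells are in the knockout pool 1 column, at 1 probe set each of Itga4, Fn1, Itgav and Itgb1.

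Genes most like Itga4 1456498_at were found by the root mean square difference of centred log2 values over the 6 pools. The 5 closest were Kpna3 (0.35), Slc39a10 (0.35), Lrrtm2 (0.40), Ahcyl1 (0.43) and Zfp800 (0.47), against a median of 1.43 over 22019 probe sets. Slc39a10, a zinc transporter gene, had for 1439041_at signals of 34.1, 749.2 and 1097.4 in knockout pools 1, 2 and 3, against 815.8, 911.9 and 1675.6 in wildtype pools 1, 2 and 3. Kpna3, a nuclear import gene, had for 1421828_at signals of 275.1, 2223.3 and 3021 in knockout, against 2666, 2523.8 and 3649 in wildtype, in the same order of pools. All 5 were lowest in knockout pool 1, as the choice by likeness to this probe set favours, and for all 5 the groups overlapped. Like Itga4 1456498_at, all 5 were lower in knockout within all 3 numbers, which held for 14.9% of all probe sets.

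Other integrin chain genes were described as a list by counts and a median, each gene by its brightest probe set, without a test of the list. Of 17 measured, 9 passed the filter, with 2 lower and 7 higher means in knockout and a median log2 difference of 0.13, and 0 were called in limma. Itgb8 (log2 difference 0.12, SE 0.29), Itgb5 (0.22, SE 0.35) and Itga1 (0.13, SE 0.85) were the brightest. Itga1, a collagen receptor chain, spanned 72.4, 509.9 and 1388.8 in knockout pools 1, 2 and 3, against 155.8, 746.5 and 395 in wildtype pools 1, 2 and 3. Both pools numbered 1 were lowest there too. The leukocyte chains Itgal, Itgam and Itgb2 were below the filter, while Itgae and Itgax, also known from leukocytes, were above it.

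Other ligands had higher means in knockout for 15 of 19 members above the filter and lower means for 4, with a median of 0.18, and 0 were called. Nid1, a basement membrane linker, had a log2 difference of 0.35 (SE 0.33), the laminin chain gene Lamb1 0.53 (SE 0.43) and Edil3, a secreted ligand of alpha-v integrins, −0.17 (SE 0.58). For Lamb1 the signals were 5787.7, 4173.1 and 2155.9 in knockout pools 1, 2 and 3 and 3391.7, 2678.4 and 1864.2 in wildtype pools 1, 2 and 3, so that the groups overlapped although knockout was higher within each number. In this list 2 genes, the laminin chain genes Lama3 and Lama5, were higher without overlap, which is 2 of 19 against 5.42% of all probe sets. Lama3 had means of 161 in knockout and 92.8 in wildtype. It passed the filter of 115 only through its knockout signal, which favours its place in this count. Lama5 1427009_at read 334.1, 562.9 and 233.9 in knockout pools 1, 2 and 3, against 141.8, 231.2 and 179.1 in wildtype pools 1, 2 and 3 (log2 difference 0.84, SE 0.35, limma adjusted p = 0.9996). Madcam1, the ligand of alpha-4 beta-7, was below the filter.

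Adaptors and signalling genes inside the cell had 19 higher and 10 lower means among 29, a median of 0.17 and 0 calls. Vcl, which links integrins to actin, read 5586.9, 14132.5 and 20246.8 in knockout pools 1, 2 and 3, against 7557.6, 10232.4 and 9555.9 in wildtype pools 1, 2 and 3 (log2 difference 0.37, SE 0.47). The small GTPase genes Rap1a and Rap1b, activators of integrins, were the 2 genes of the list lower without overlap, with log2 differences of −0.14 (SE 0.29 each). Fermt2, a kindlin gene, was the 1 gene higher without overlap (0.17, SE 0.28). Over all probe sets, 4.21% were lower and 5.42% higher without overlap, so these counts of 2 and 1 among 29 are near the background. For Rap1a the means were 6090 ± 155 in knockout and 6705 ± 127 in wildtype (SD, n = 3 each). At an unadjusted p under 0.05 there were 0 of the integrin chain genes, 1 of the ligands (Lama5) and 0 of the adaptors, and with array weights 0, 4 and 1 of them were called. Over all probe sets, 3.15% had such an unadjusted p, and with array weights 6.93% were called lower and 9.1% higher.

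Markers of the cell types a pineal sample can hold were summed per pool. Macrophage and leukocyte markers, 11 of 12 above the filter (Aif1 was not), had higher means in knockout for 10, and their summed signal was 9817 to 12162 in knockout and 7415 to 8309 in wildtype. Pericyte and smooth muscle markers, 9 of 11 above it (not Myh11 and Cnn1), were higher for 9, with sums of 16250 to 25482 in knockout and 12976 to 16056 in wildtype. Meningeal fibroblast markers, 11 of 11, were higher for 10, with sums of 101080 to 130280 in knockout and 84484 to 91072 in wildtype. Of all probe sets above the filter, 53.3% had higher means in knockout. Single markers higher without overlap numbered 2 (macrophage and leukocyte), 2 (pericyte and smooth muscle) and 3 (meningeal fibroblast), against 5.42% of all probe sets. The brightest probe sets weigh most in each sum.

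Endothelial markers, 11 of 11 above the filter, were higher in knockout for 10, with sums of 11295 to 18530 in knockout and 11443 to 15148 in wildtype. Schwann cell and neural crest markers, 6 of 6, were higher for 5, with sums of 2778 to 3486 in knockout and 2729 to 3946 in wildtype. Choroid plexus markers, 6 of 7 (not Kl), varied between pools of each genotype, from 2885 to 101120 in knockout and from 2941 to 75227 in wildtype. Pinealocyte markers had lower means for 8 of 9, with sums of 25788 to 45130 in knockout and 37626 to 57416 in wildtype. Epithelial markers, 4 of 4, were lower for 3, with sums of 2185 to 6798 in knockout and 2511 to 4326 in wildtype. No single marker of any list was called in limma, and none had a signal of 0 in any pool. In limma 0 to 1 per list had an unadjusted p under 0.05, against 3.15% of all probe sets. With array weights, 4 of 9 pinealocyte and 3 of 9 pericyte and smooth muscle markers were called. The calls were 3 of 6 each for Schwann cell and choroid plexus markers, and 0 to 2 for each other list. That fit called 6.93% of all probe sets lower and 9.1% higher. The part of these cells in the integrin values was not tested.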

How the data were processed

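Total RNA of pooled pineal glands was amplified and hybridised to 1 single-colour Affymetrix array per pool. Per the submitters' processing notes, the deposited linear signal intensity of each probe set came from GCOS, whose version and algorithm are not given in the sources used here; the arrays' trimmed means lay between 499.54 and 499.96. Scanner files and detection calls were not analysed here.

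From the table of 45037 probe sets, log2(signal + 38.6) was computed, 38.6 being the 20th percentile of all signals, so that differences of dim probe sets are understated. The 40% with the lowest mean over all 6 pools (below 115) were left out, and 27019 were fitted in limma 3.58.1 (R 4.3.3) with a mean-dependent prior variance. Benjamini-Hochberg adjustment covered all 27019, a call meant an adjusted p under 0.05, and values of probe sets below the filter are from a fit of all probe sets. The scripts were tested on simulated data. No depth exists for arrays: 3 pools per genotype limit precision (median SE 0.36), and an exact permutation test of 3 against 3 cannot go below p = 0.1. The labels do not say that pools came from separate litters, so p-values measure the spread between these pools.

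The members and all lists were chosen with earlier results of these data known. The genes named are all probe sets of the 10 members, Neurod1, the 5 measured neighbours on each side of it, the 5 genes closest to Itga4, and the 3 brightest of each pathway list measured in the table. Cell type markers, and pathway genes below the filter, were also named. For those pathway genes, and for Itgae, Itgax, Lama3, Lama5 and Fermt2, the choice was made after their values were seen. Genes came from the platform annotation: 34945 probe sets named 1 gene, 932 several and 9160 none, and 34741 of the first matched RefSeq. Same-numbered pools share a date in the labels, and their deviations from the group means correlated (0.34, 0.23 and 0.41 for numbers 1, 2 and 3), so the numbers pair the pools, and the number was also fitted as a block. The SEs, intervals and adjusted p given in Results are from fits without it. With the block some SEs were lower (Itga6 1422445_at, 0.52 to 0.34) and some higher (Itgb1 1427771_x_at, 0.55 to 0.59). The lowest limma adjusted p of a partner or ligand probe set was then 0.784. Other alternatives changed the offset, normalization, filter, prior, array weights and the pools included.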

Additional observations from a re-analysis of the deposited data

How the results depend on the processing

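Signals near the array background and 3 pools per genotype limit what can be seen, and the cause of the changes listed here was not tested. With the pool number as a replicate block, 2 probe sets were called lower, both Neurod1, as without it, and no call changed. The count called lower was 0 with no offset, 0 with quantile normalization, 0 without the trend in the prior, 1 with 1 probe set per gene, and 1, 0 and 0 without both pools numbered 1, 2 and 3, and it was 0 to 1 when single pools were left out, being 1 without knockout pool 1 or 3 and 0 without any other. With array weights, whose estimation stopped before full convergence and which were 4.99 for knockout pool 2 and 7.29 for wildtype pool 2 and at most 0.529 for the others, 1873 probe sets were called lower and 2459 higher, among them Itga6 1422444_at (1.38, limma adjusted p = 0.00956), 1 adaptor lower, and of the other ligands 1 lower and 3 higher. Member probe sets higher in knockout without overlap numbered 7, 2 and 2 without both pools numbered 1, 2 and 3, and 1 to 6 without single pools. Those lower numbered 2 with no filter, 2, 3 and 2 without both pools numbered 1, 2 and 3, and 1 to 3 without single pools. Itga4 1456498_at kept its direction in all alternatives, between −2.41 and −0.89 without single pools, and was −2.20 with no offset, −1.47 with the higher offset and −0.95 with array weights. Log2 differences turned round with array weights for Fn1 1437218_at (0.48), Itga8 (0.46), Itgav 1432678_at (0.39), Itgb1 1426918_at (0.17), Vcam1 1448162_at (0.22) and Vcam1 1451314_a_at (0.38). Without both pools numbered 1 they did so for Fn1 1437218_at (0.45), Itga8 (0.30), Itgav 1432678_at (0.31), Itgb1 1426918_at (0.43), Itgb1 1427771_x_at (0.0432) and Itgb1 1452545_a_at (0.21). Without both numbered 2 they did for Itga4 1436037_at (0.0867), Itga6 1422444_at (−0.0027) and Itgav 1452784_at (−0.0305), and without both numbered 3 for Itga4 1436037_at (0.0882), Itgav 1452784_at (−0.18), Vcam1 1448162_at (0.14) and Vcam1 1451314_a_at (0.0628). The median of the other integrin chain genes turned with array weights (−0.20) and without both pools numbered 1 (−0.10). Quantile normalization turned Itgav 1452784_at (−0.0322) and Vcam1 1448162_at (0.021). Leaving out single pools, ranges crossed 0 for Fn1 1437218_at (−1.07 to 0.31), Itga8 (−0.47 to 0.16), Itgav 1432678_at (−0.70 to 0.55), Itgav 1452784_at (−0.33 to 0.62), Itgb1 1426918_at (−0.42 to 0.19), Vcam1 1415989_at (−0.0579 to 0.41), Vcam1 1448162_at (−0.24 to 0.23) and Itga4 1436037_at (−0.29 to 0.11).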
